A study of Caenorhabditis elegans with 33 samples.

Results

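This report describes the transcriptome of Caenorhabditis elegans carrying both eat-2(ad465) and mxl-2(tm1516), set against the wild-type strain N2, when both strains were fed bacteria making double-stranded RNA against pha-4. The comparison takes 3 libraries labelled eat-2(ad465);mxl-2(tm1516) on pha-4 RNAi and 3 libraries labelled N2 on pha-4 RNAi, which are 6 of the 33 libraries of the series, chosen by their titles. All 6 came from whole hermaphrodites collected on the second day of adulthood. Every group, the controls included, was raised on HT115(DE3) bacteria, received 5-fluorodeoxyuridine at the last larval stage to stop progeny, and was moved to a higher temperature at that stage. The remaining libraries are the same strains, and the eat-2(ad465) and mxl-2(tm1516) single mutants, on pha-4 RNAi, daf-16 RNAi or the empty vector L4440. Each library is a separately synchronised population of many pooled animals, per the series' design text.

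EAT-2 is a nicotinic acetylcholine receptor subunit of the pharyngeal muscle, and its mutants pump slowly and eat little, which makes them a standard genetic model of dietary restriction. MXL-2 is the Mlx-like partner of MML-1, the worm's Mondo-family transcription factor, and this Myc-like pair acts beside the MXL-1 and MDL-1 pair. PHA-4 is the FoxA factor that specifies the pharynx in the embryo and is needed in the adult for the long life that dietary restriction gives. In whole animals, a lower level of a transcript in fewer cells of a type and a lower level per cell cannot be told apart.

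The pha-4 transcript (V:20753052-20760317, plus strand, 8 exon blocks, WBcel235) had 7.74, 12.8 and 10.8 counts-per-million (CPM, scaled by trimmed-mean-of-M-values factors) in the libraries labelled eat-2;mxl-2 on pha-4 RNAi, against 4.82, 4.53 and 5.86 CPM in N2 on pha-4 RNAi. All 3 labelled double-mutant libraries lay above all 3 N2 libraries. The log2 fold change was 1.04 ± 0.37 (SE), with an edgeR adjusted p of 0.183, and an exact permutation test over the 3 and 3 libraries gave a two-sided p of 0.1, the smallest that this design allows.

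The level of the pha-4 transcript did not follow the feeding labels in every strain. In N2 the transcript was lower on pha-4 RNAi (4.53 to 5.86 CPM) than on empty vector (9.29 to 17.8 CPM), with no overlap, but the change did not pass (log2 fold change -1.46 ± 0.37, edgeR adjusted p = 0.0919). In mxl-2 it held 6.01 to 7.68 CPM on pha-4 RNAi, against 7.31 to 17.4 CPM on empty vector, and the groups overlapped. In eat-2 the 2 libraries on pha-4 RNAi held 5.10 and 13.6 CPM, against 14.05 and 10.5 CPM on empty vector, so that the second lay within the empty vector range. In the double mutant the libraries labelled pha-4 RNAi held 7.74 to 12.8 CPM, against 3.27 to 4.22 CPM in those labelled empty vector and 4.37 to 7.64 CPM in those labelled daf-16 RNAi. The strain difference on pha-4 RNAi exceeded that on empty vector by 2.91 on the log2 scale, which passed the edgeR test of the difference itself. The target transcript of the double mutant thus went against its feeding labels, and every direction below is that of the libraries as labelled.

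**Figure D1:**
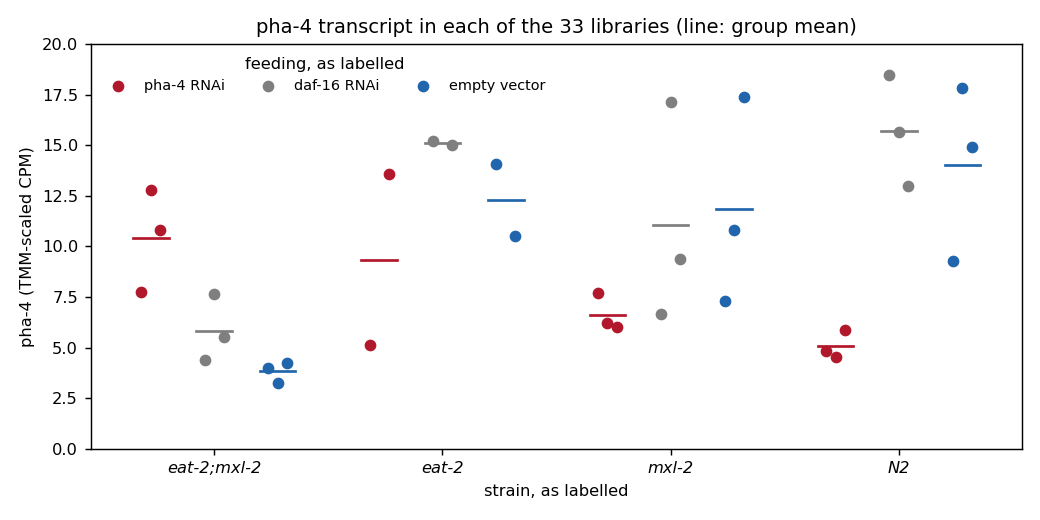
TMM-scaled CPM of pha-4 in each of the 33 libraries, by labelled strain along the horizontal axis and labelled feeding by colour, with a line at each group mean. The 3 libraries labelled eat-2;mxl-2 on pha-4 RNAi sit at 7.74 to 12.8 CPM, above those of the same strain labelled empty vector at 3.27 to 4.22 CPM, while N2 shows the opposite order.

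The genes of the pha-4 RNAi response gave a further view of those labels. In N2, 56 genes differed between pha-4 RNAi and empty vector, 48 of them higher and 8 lower on pha-4 RNAi. Of these 56 genes, 52 went the same way in eat-2 and 53 in mxl-2, by the difference of mean log2 CPM between the same feedings within each strain. In the libraries labelled eat-2;mxl-2, 25 went the same way and 31 the opposite way. The median change in the N2 direction was -0.12 on the log2 scale in the double mutant, against 1.81 in eat-2, 1.34 in mxl-2 and 2.46 in N2, where the genes were chosen. These are descriptions with no test.

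The mxl-2 transcript (III:186949-188131, minus strand) had 4.28, 4.01 and 4.78 CPM in the labelled double-mutant libraries, against 57.5, 59.5 and 67.1 CPM in N2. Every library of the double mutant was below every N2 library, with a log2 fold change of -3.81 ± 0.39 and an edgeR adjusted p of 1.69e-06, and the reads that remain were not examined for the deleted part of tm1516. The eat-2 transcript was scarce, at 7, 6 and 3 counts in the labelled double-mutant libraries and 22, 20 and 16 counts in N2. Its log2 fold change of -1.75 ± 0.72 did not pass the edgeR test (adjusted p = 0.287), although the groups did not overlap.

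The make-up of the libraries bears on all that follows. The third N2 library on pha-4 RNAi stood apart. Its log2 CPM values correlated at 0.942 and 0.944 with its 2 replicates, which correlated at 0.99 with each other. On the first principal component of the N2 and double-mutant libraries, it scored 27.1, against -50.6 and -55.4 for those replicates. Its mean log2 CPM over major sperm protein genes was 1.85, against 4.49 and 4.83 in the other N2 libraries, and 1.69, 2.31 and 2.53 in the labelled double-mutant libraries. The submitters' library numbers of the double mutant run from 49 to 57 and those of all other strains from 1 to 27, so that strain and this numbering cannot be told apart. Total counts were 25.1 M to 27.9 M (M, 1e6 counts) in the labelled double-mutant libraries and 29.4 M to 31.5 M in N2.

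Across 17354 genes tested, 342 (1.97%) differed between the labelled double-mutant libraries and N2 on pha-4 RNAi at an edgeR quasi-likelihood adjusted p under 0.05. Of these, 192 (1.11% of the genes tested) were higher and 150 (0.864%) were lower in the labelled double-mutant libraries. The CPM of the 3 and 3 libraries did not overlap for 341 of the 342, while 30.7% of all genes tested showed no overlap. The called genes had a median absolute log2 fold change of 2.16, the smallest being 0.57, and 307 were protein-coding. The median log2 fold change of all genes tested was -0.03.

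Most of these differences stood beside the same strain difference on other food. Of the 342 genes, 196 (57.3%) were also called on empty vector, which is 9.33% of the 2101 called there (12.1% of the genes tested, 4.96% higher and 7.15% lower), and 184 of them went the same way. On daf-16 RNAi, 217 (63.5%) were also called, which is 6.22% of the 3488 called there (20.1% of the genes tested, 12.7% higher and 7.44% lower), and 215 went the same way. Of the 342, 167 were called in all 3 feedings, 162 of them in a single direction. A further 96 of the 342 were called on pha-4 RNAi alone, and 29 of these 96 also passed the test of the difference from empty vector. The groups of the 3 feedings share no libraries. By contrast, eat-2 and mxl-2 single mutants each differed from N2 on pha-4 RNAi in 2 genes at the same threshold. These were mxl-2 itself and F23F12.12 in the mxl-2 mutant, and Y65A5A.1 and C30F12.3 in eat-2. Both counts share the N2 libraries with the comparison here and rest on 2 libraries for eat-2. The 3 mxl-2 libraries on pha-4 RNAi were split, with mean log2 CPM over major sperm protein genes of -0.75, -1.17 and 4.44.

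The count moved with single libraries. It was 139, 211 and 434 without N2 replicate 1, 2 and 3, and 165, 186 and 163 without labelled double-mutant replicate 1, 2 and 3. Without the third N2 library, 434 genes (2.5%) were called, of which 269 were among the 342. The share called higher was 56.1% here, 34.5% when only the 18 N2 and double-mutant libraries entered the model, and 82.0% with limma on log2(TPM + 1), where the median of all genes moved to 0.12 (to 0.20 with a pseudocount of 0.1).

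**Figure D2:**
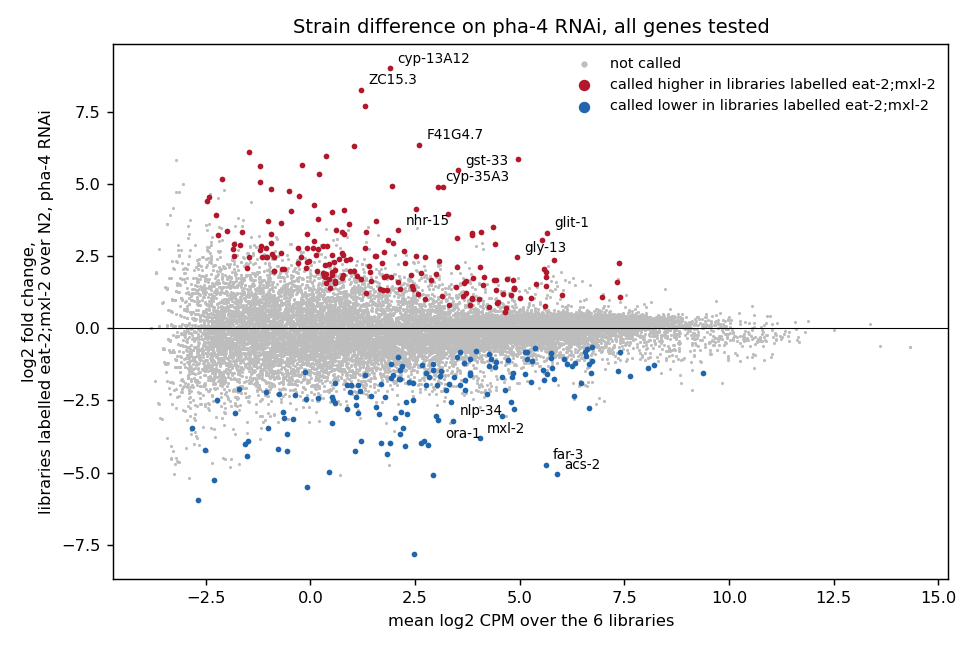
Log2 fold change of the libraries labelled eat-2;mxl-2 over N2 on pha-4 RNAi (vertical axis) against mean log2 CPM over the 6 libraries (horizontal axis) for 17354 genes, with the 192 genes called higher in red and the 150 called lower in blue. The called genes are spread over much of the range of levels, with acs-2 and far-3 among the lowest of the abundant genes.

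The highest named genes were led by detoxification enzymes, although the size of several rested on 1 library. Among the 10 called genes with a symbol, no overlap between groups, at least 5 CPM in the higher group and the largest increases, 5 encode cytochrome P450 enzymes or glutathione transferases, which oxidise and conjugate foreign compounds and lipids. The P450 gene cyp-13A12 (III:13024547-13028017) had 333, 25.7 and 11.5 CPM in the labelled double-mutant libraries, against 0.347, 0.181 and 0.189 CPM in N2. The first labelled double-mutant library held most of this signal, and every N2 library was below every labelled double-mutant library. The log2 fold change was 9.0 ± 1.81 (edgeR adjusted p = 0.00616), and 6.30 without that library. Its relative cyp-13A8 (II:9805600-9807569) had 145, 11.8 and 4.86 CPM in the labelled double-mutant libraries and 0.27, 0.109 and 0.378 CPM in N2, a log2 fold change of 7.70 ± 1.61 (edgeR adjusted p = 0.00865), or 5.04 and no longer called without the same library.

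The same library was high for both glutathione transferases and for stdh-2. For gst-33 the values were 315, 29.9 and 16.6 CPM in the labelled double-mutant libraries and 3.78, 3.3 and 1.1 CPM in N2. For gst-44 they were 190, 21.1 and 8.23 CPM in the labelled double-mutant libraries, against 2.23, 3.01 and 2.21 CPM in N2. The putative steroid dehydrogenase gene stdh-2 had 27.2, 1.46 and 0.556 CPM in the labelled double-mutant libraries and 0.154, 0.29 and 0.126 CPM in N2. Their log2 fold changes of 5.47 ± 1.37, 4.88 ± 1.09 and 5.65 ± 1.29 had edgeR adjusted p values of 0.0331, 0.0143 and 0.017, and without that library they were 3.12, 2.59 and 2.4, none of them called.

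In the other 5 of the 10 highest genes no single labelled double-mutant library held most of the signal. The P450 gene cyp-35A3 (V:4022609-4024482) had 43.0, 49.8 and 56.2 CPM in the labelled double-mutant libraries and 1.77, 2.83 and 0.409 CPM in N2 (log2 fold change 4.90 ± 0.86, edgeR adjusted p = 0.00181). The nuclear hormone receptor gene nhr-15 (V:312721-323650) had 13.7, 13.3 and 13.8 CPM in the labelled double-mutant libraries, against 1.43, 1.34 and 1.1 CPM in N2 (3.39 ± 0.29, edgeR adjusted p = 8.88e-08). Both groups of nhr-15 were tight and well apart. For rnh-1.3, which encodes an RNase H, the values were 70.5, 59.1 and 77.2 CPM in the labelled double-mutant libraries and 5.74, 6.89 and 5.64 CPM in N2 (log2 fold change 3.50 ± 0.36, edgeR adjusted p = 1.81e-06). The lysozyme gene lys-10 had 56.8, 59.5 and 44.7 CPM in the labelled double-mutant libraries and 5.7, 6.57 and 3.87 CPM in N2 (3.32 ± 0.63, edgeR adjusted p = 0.00347). Last, mpst-2, a mercaptopyruvate sulfurtransferase gene, had 4.36, 5.39 and 6.26 CPM in the labelled double-mutant libraries, against 0.424, 0.29 and 0.252 CPM in N2 (4.04 ± 0.72, edgeR adjusted p = 0.00205).

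These 10 genes were largely shared with the other feedings. On empty vector 8 of them were called in the same direction, and on daf-16 RNAi all 10 were, and 0 differed from empty vector by the edgeR test of the difference (2 at an unadjusted p under 0.05, 0 by DESeq2 and 1 by limma on log2(TPM + 1)). Every leave-one-out fit kept 5 of the 10, and 7 were called without the third N2 library.

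The 10 lowest genes held 2 abundant lipid-handling genes. The gene acs-2 (V:15567394-15569897), an acyl-CoA synthetase of fatty-acid oxidation that is known to be induced by fasting through NHR-49, had 9.86, 12.59 and 8.93 CPM in the labelled double-mutant libraries, against 361, 454 and 238 CPM in N2. N2 libraries averaged 33.5 times the labelled double-mutant mean, the log2 fold change was -5.07 ± 0.71 (edgeR adjusted p = 0.000131), and every leave-one-out fit kept the call. The difference was about as large on the other foods, -5.0 on empty vector and -5.02 on daf-16 RNAi, and neither single mutant was low on pha-4 RNAi (1.01 in eat-2 and 1.31 in mxl-2, log2, against N2).

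The gene far-3 (V:12996787-12997522), which encodes a fatty-acid and retinol-binding protein, had a strain difference that changed with the labelled feeding. It had 10.3, 8.93 and 9.30 CPM in the labelled double-mutant libraries and 279, 234 and 247 CPM in N2. N2 averaged 26.6 times the labelled double-mutant mean, and the log2 fold change was -4.73 ± 0.37 (edgeR adjusted p = 1.37e-08); 7.43% of its exonic bases overlap far-5. On pha-4 RNAi it averaged 120 CPM in eat-2 and 114 CPM in mxl-2. On empty vector the order was turned round, with a mean of 212 CPM in the double mutant and 43.2 CPM in N2 (log2 fold change 2.29, edgeR adjusted p = 8.4e-05). On daf-16 RNAi the means were 7.32 CPM in the double mutant and 6.33 CPM in N2.

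The remaining 8 of the 10 were mxl-2, described above, and 7 genes of lower level. The neuropeptide-like gene nlp-34 had 3.57, 3.35 and 3.71 CPM in the labelled double-mutant libraries and 42.05, 36.5 and 19.1 CPM in N2 (log2 fold change -3.20 ± 0.54, edgeR adjusted p = 0.00103). The gene ora-1 had 2.27, 2.75 and 3.15 CPM in the labelled double-mutant libraries and 25.5, 20.97 and 27.2 CPM in N2 (-3.17 ± 0.48, edgeR adjusted p = 0.000293). Both were low in every labelled double-mutant library and both are described again below, because their strain difference changed with the labelled feeding. The transthyretin-related gene ttr-29 (-3.67), the bestrophin channel gene best-1 (-3.46), the glutamine-rich gene pqn-84 (-3.90), the lysozyme gene lys-3 (-3.97) and dct-8 (-3.97) complete the list on the log2 scale. For dct-8 the N2 libraries differed widely, at 5.97, 4.90 and 46.7 CPM against 1.19, 1.57 and 0.889 CPM in the labelled double-mutant libraries, and without the third N2 library the value was -2.13 and not called. Of these 10 genes, 3 were called in the same direction in both other feedings, 3 differed from empty vector by the test of the difference, and 9 were called without the third N2 library.

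**Figure D3:**
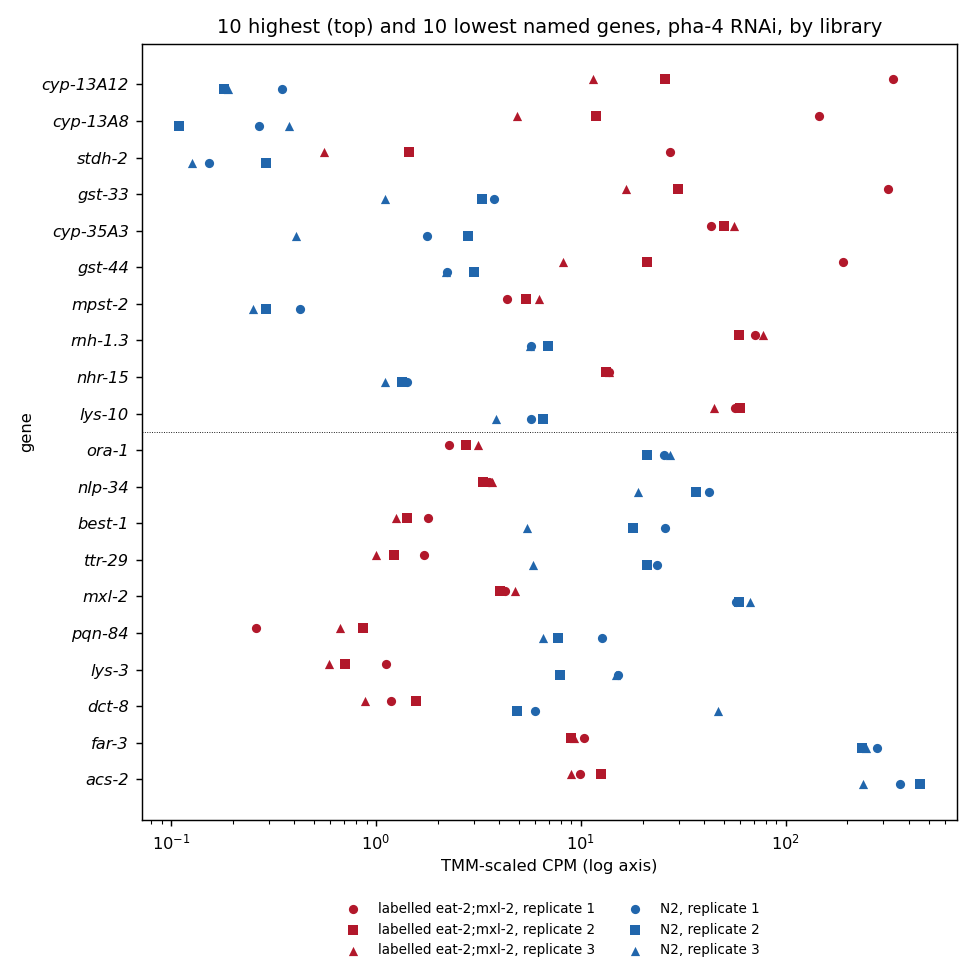
TMM-scaled CPM (log axis) of the 10 highest and 10 lowest named genes in each library on pha-4 RNAi, with red symbols for the libraries labelled eat-2;mxl-2 above blue symbols for N2 and 1 shape per replicate. The first labelled double-mutant library lies far to the right for cyp-13A12 (333 CPM), cyp-13A8, stdh-2, gst-33 and gst-44, while nhr-15, rnh-1.3, acs-2 and far-3 hold together within each group.

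Of the 5 genes with the smallest p, far-3 and nhr-15 are described above and 3 have no symbol. The values of R09F10.3 (X:8294625-8296688) were 145, 123 and 137 CPM in the labelled double-mutant libraries and 12.26, 14.7 and 21.4 CPM in N2 (log2 fold change 3.07 ± 0.21, edgeR adjusted p = 1.96e-09). F41G4.7 (X:16834896-16836404) had 48.4, 63.3 and 48.1 CPM in the labelled double-mutant libraries, against 0.501, 0.58 and 0.85 CPM in N2 (6.35 ± 0.45, edgeR adjusted p = 2.19e-09). ZC15.3 (V:20303588-20304908) had 837, 1035 and 977 counts in the labelled double-mutant libraries and 0, 2 and 8 counts in N2 (8.26 ± 0.82, edgeR adjusted p = 1.08e-06). All 3 were called in the same direction on empty vector and on daf-16 RNAi, with log2 fold changes on empty vector of 3.19, 5.87 and 7.99.

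Enzymes of detoxification were followed as whole families. Of 72 cytochrome P450 genes tested, 6 were higher and 0 lower, where 1.11% of all genes tested were called higher, with a median log2 fold change of 0.34, against -0.03 over all genes. Beside the 3 named above these were cyp-35A1 (4.75 ± 0.77), cyp-13A6 (2.83 ± 0.63) and cyp-35C1 (1.75 ± 0.45). Several of these genes are near copies of each other, and reads could have been split or shared between them. Of 41 glutathione transferase genes, 3 were higher and 0 lower by edgeR and 6 higher and 1 lower by DESeq2 (median -0.04), where 1.97% of all genes were called in either direction by edgeR. The counts were 1 higher and 1 lower without the third N2 library, and gst-33 and gst-44 lost the call without the first labelled double-mutant library. The third was gst-20, with 103, 101 and 105 CPM in the labelled double-mutant libraries and 32.4, 31.9 and 10.3 CPM in N2. UDP-glucuronosyl transferases, which conjugate sugars to the same kinds of compound, had 0 of 65 higher and 3 lower by edgeR (ugt-17, ugt-25 and ugt-41), with a median of -0.38, while DESeq2 called 4 higher and 6 lower and limma on log2(TPM + 1) 3 higher and 2 lower. The edgeR direction of that family therefore depends on the test. For P450 genes DESeq2 and limma on log2(TPM + 1) each called 11 higher and 0 lower. Over all genes tested, DESeq2 called 709 and limma 571. Of the limma calls 82.0% were higher, so the limma direction alone says little about the P450 family. For ugt-25 the values were 5.29, 4.21 and 4.26 CPM in the labelled double-mutant libraries and 19.5, 13.4 and 28.1 CPM in N2 (-2.15 ± 0.34, edgeR adjusted p = 0.000515).

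Families of defence and signalling genes are given against the 1.97% of all genes that were called. Among 175 C-type lectin genes, 2 were higher (clec-206 and clec-12) and 4 lower (clec-47, clec-233, clec-139 and clec-223) by edgeR, with a median of -0.14. DESeq2 called 4 higher and 9 lower, and limma on log2(TPM + 1) 11 higher and 1 lower. The median was 0.22 without the third N2 library, so the direction of this family depends on the test and on that library. Among 82 antimicrobial genes, 2 were higher (lys-10 and spp-8) and 4 lower (cnc-9, lys-3, fip-6 and cnc-4), with a median of -0.36; cnc-9 had 1, 0 and 0 counts in the labelled double-mutant libraries and 37, 12 and 3 counts in N2, at least 5.73-fold lower. The neuropeptide list, 104 genes chosen by flp and nlp names alone, had 0 higher and 3 lower members (nlp-27, nlp-31 and nlp-34), with a median of -0.63. All 3 lie from 3 to 4 Mb on chromosome V, and the name alone does not show that a gene acts in neurons. For nlp-27 the values were 38.8, 48.8 and 56.9 CPM in the labelled double-mutant libraries and 239, 199 and 95.0 CPM in N2. Nuclear hormone receptors, 224 in all, had 3 higher (nhr-15, nhr-47 and nhr-244) and 1 lower (nhr-137) member with a median of -0.24, and this share of called members is near that of all genes.

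Within the Myc-family network, 2 of 7 genes were lower and 0 higher, where 1.97% of all genes tested were called. One of these is mxl-2, the gene mutated in the strain, so its call says nothing about the rest of the network. Besides mxl-2, the lower gene was mxl-3, a repressor of lipase genes in fed animals, with 29.5, 25.97 and 23.5 CPM in the labelled double-mutant libraries and 59.0, 52.3 and 63.7 CPM in N2 (log2 fold change -1.15 ± 0.26, edgeR adjusted p = 0.0161). The call for mxl-3 held in 3 of the 6 leave-one-out fits. The partner gene mml-1 had 34.8, 53.3 and 50.3 CPM in the labelled double-mutant libraries, against 48.7, 49.5 and 37.4 CPM in N2, and its groups overlapped (0.03 ± 0.27, edgeR adjusted p = 0.971). The other 4 members (mxl-1, mdl-1, hlh-30 and sbp-1) had log2 fold changes of -0.94 to -0.24 and did not pass.

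Genes tied to lifespan and stress are given against the 1.97% of all genes tested that were called. Of 12 targets of DAF-16, the forkhead factor of insulin signalling, 0 were higher and 1 lower: icl-1, the glyoxylate-cycle enzyme, had 279, 578 and 372 CPM in the labelled double-mutant libraries and 1616, 1354 and 648 CPM in N2 (-1.56 ± 0.38, edgeR adjusted p = 0.0264), and was called in the same direction on both other foods. The daf-16 transcript had 93.8, 150 and 134 CPM in the labelled double-mutant libraries and 164, 163 and 151 CPM in N2, and did not pass (-0.34 ± 0.28, edgeR adjusted p = 0.625). Of 28 autophagy genes 1 was higher, atg-4.2, a protease that processes the membrane protein LGG-1, with 24.5, 22.1 and 22.4 CPM in the labelled double-mutant libraries, against 9.02, 11.4 and 14.1 CPM in N2. Of 36 beta-oxidation genes 1 was higher, the enoyl-CoA hydratase gene ech-9 (2.34 ± 0.56, edgeR adjusted p = 0.0252). Longevity regulators (0 of 25), superoxide dismutases and catalases (0 of 8), flavin monooxygenases (0 of 5) and heat shock proteins (0 of 21) had no called member by edgeR, DESeq2 or limma, and 6, 0, 3 and 3 members, in that order, at an unadjusted p under 0.05.

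Other lists had few calls or none, where 1.97% of all genes tested were called. Single lower members were found among 144 col collagen genes (col-183, with 11.6% of its exonic bases shared with F02D10.10) and 33 astacin proteases (nas-11), and 2 among 65 abu and pqn genes (pqn-18 and pqn-84). No member was called among 76 ribosomal protein genes (median -0.34), 33 proteasome genes (0.19), 46 respiratory chain genes (-0.21), 66 mitochondrial ribosome genes (-0.05) or 6 vitellogenin genes (-0.82), values on the log2 scale. At an unadjusted p under 0.05 these lists held 8, 1, 0, 8 and 0 members, DESeq2 called 6 ribosomal protein genes lower, and limma on log2(TPM + 1) called 2 proteasome genes and 1 mitochondrial ribosome gene higher. In all, 26 of the 41 lists had no called member.

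Sperm, cuticle and tissue markers differed widely among the libraries without passing the test. Major sperm protein genes had a median of -2.12 with 0 of 31 called by edgeR (1 at an unadjusted p under 0.05, 0 by DESeq2 or limma). The 53 other sperm genes had a median of -1.71 with 0 called (1 at an unadjusted p under 0.05, 1 lower by DESeq2). Furrow, shape and strut collagens of the cuticle had a median of 1.48 with 0 of 20 called (4 at an unadjusted p under 0.05, 0 by DESeq2 or limma). Over markers of 11 cell types, 0 of 116 were called by edgeR, 15 had an unadjusted p under 0.05, and DESeq2 called 2 higher. Summed over 30 sperm markers, the labelled double-mutant libraries held 133, 219 and 249 CPM, against 995, 1278 and 160 CPM in N2, so that the third N2 library lay among the labelled double-mutant ones. The 10 body wall muscle markers summed to 1870, 2754 and 2076 CPM in the labelled double-mutant libraries and 5400, 4869 and 2296 CPM in N2, and the 12 intestinal markers to 5880, 7189 and 7051 CPM in the labelled double-mutant libraries and 9364, 6712 and 2163 CPM in N2. How far these differences shaped the gene results was not tested. A model that also took in the sperm transcript level gave 918 calls and kept 341 of the 342. That model leaves the muscle and intestinal differences unadjusted, so it cannot decide the question.

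**Figure D4:**
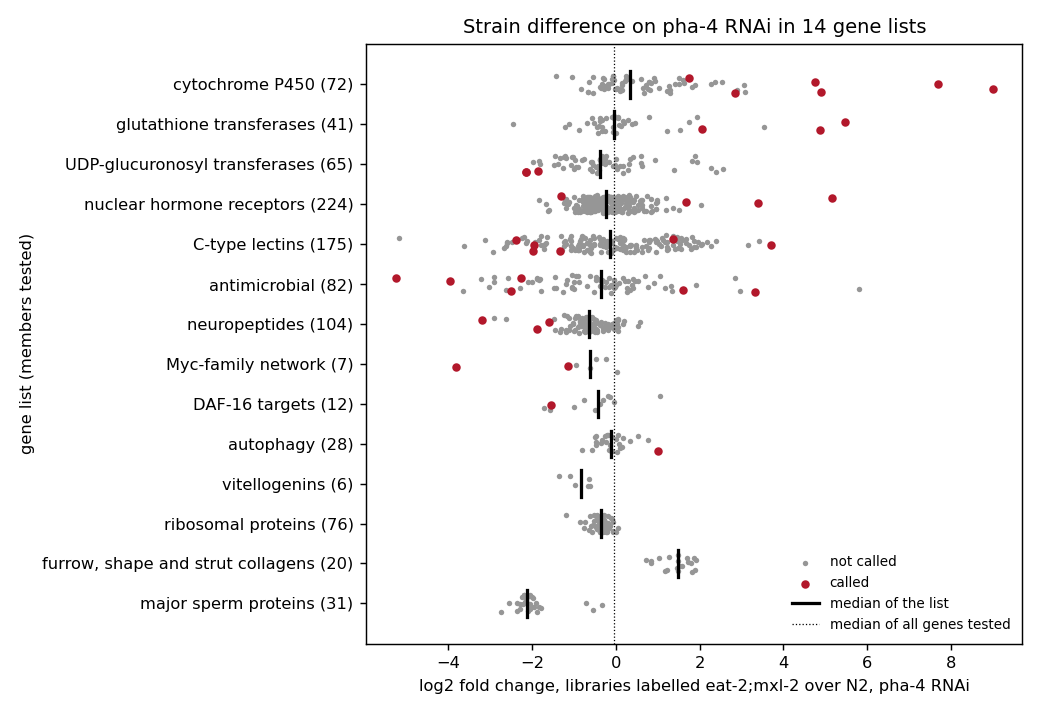
Log2 fold change of the libraries labelled eat-2;mxl-2 over N2 on pha-4 RNAi for every tested member of 14 gene lists (points, called members in red), with the median of each list as a black bar and that of all genes as a dotted line. The called P450 and glutathione transferase genes lie to the right, the UDP-glucuronosyl transferases and neuropeptides called by edgeR to the left, and the major sperm protein list (median -2.12) and the furrow, shape and strut collagen list (median 1.48) lie to 1 side of 0 with 0 called members.

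Whether the strain difference changed with the labelled feeding was tested next. The pha-4 transcript of the double mutant went against those labels. Whether the feeding itself or its labelling underlies the differences below was not tested. It differed between pha-4 RNAi and empty vector for 275 genes (1.58% of the genes tested), 117 positive (0.674%) and 158 negative (0.91%), by the edgeR interaction test. The count was 86 without the second N2 library on empty vector, 3000 with the groups of the contrast alone and 2886 with the 18 N2 and double-mutant libraries. Of the 275, 48 were among the 342. The gene mtl-1, a metallothionein and DAF-16 target, had the largest positive difference among the named genes (5.93 ± 1.01, edgeR adjusted p = 0.0035): on pha-4 RNAi the double mutant averaged 63.01 CPM and N2 30.4 CPM, and on empty vector the double mutant averaged 10.1 CPM and N2 297 CPM. For far-3 the difference was -7.02 ± 0.49 (edgeR adjusted p = 4e-09), for ora-1 -5.06 ± 0.65 (edgeR adjusted p = 0.00027) and for nlp-34 -4.55. On empty vector ora-1 averaged 40.5 CPM in the double mutant and 10.9 CPM in N2, and nlp-34 averaged 45.1 CPM in the double mutant and 17.7 CPM in N2, so that both were higher there in the double mutant and lower on pha-4 RNAi.

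The strain difference on pha-4 RNAi was also set against that on daf-16 RNAi. It differed for 186 genes (1.07%), 76 positive (0.438%) and 110 negative (0.634%) by the edgeR interaction test, of which 21 were among the 342. By DESeq2 it differed for 1077 genes, against 643 for the difference from empty vector, and at an unadjusted p under 0.05 by edgeR for 3508 genes, against 2149, so that the order of the counts depends on the test. The lysozyme gene lys-7 had 652, 600 and 642 CPM in the labelled double-mutant libraries and 412, 352 and 1456 CPM in N2 on pha-4 RNAi, where it did not pass, and a strain difference of 3.66 on daf-16 RNAi. This count ranged from 23 to 1240 when single libraries were left out.

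**Figure D5:**
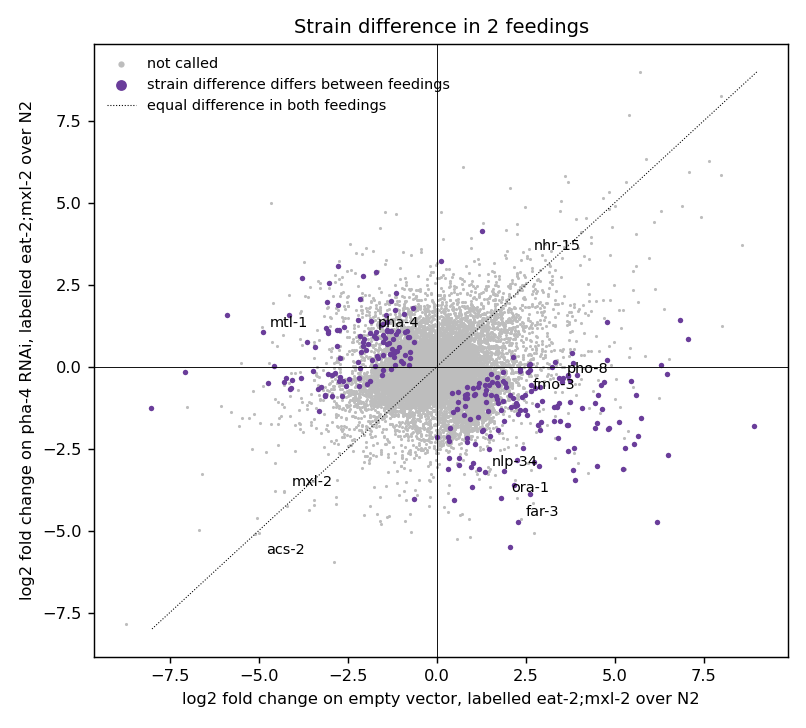
Log2 fold change of the libraries labelled eat-2;mxl-2 over N2 on pha-4 RNAi (vertical axis) against the same on empty vector (horizontal axis) for 17354 genes, with the 275 genes whose difference changed with the labelled feeding in purple and a dotted line of equal difference. The genes acs-2 and mxl-2 lie near the line, far-3, ora-1 and nlp-34 lie below 0 on pha-4 RNAi and above 0 on empty vector, and pha-4 and mtl-1 lie the other way.

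The double mutant also departed from the sum of its single mutants on pha-4 RNAi. The departure, the double mutant minus mxl-2, less eat-2 minus N2, passed the edgeR test for 349 genes (2.01%), 117 positive (0.674%) and 232 negative (1.34%), and 124 of them were among the 342. For acs-2 it was -7.39 ± 0.96 (edgeR adjusted p = 0.00015), since the gene averaged 10.46 CPM in the double mutant, 870 CPM in mxl-2, 708 CPM in eat-2 and 351 CPM in N2. For gly-13, an N-acetylglucosaminyltransferase gene, it was 2.4 ± 0.38 (edgeR adjusted p = 0.0015): the gene had 77.5, 67.4 and 72.1 CPM in the labelled double-mutant libraries and 14.9, 11.7 and 12.9 CPM in N2, and log2 fold changes of -0.06 in eat-2 and 0.12 in mxl-2 against N2. The calpain gene tra-3 (2.09) and nhr-15 (2.57) went the same way. Without mxl-2 replicate 1, 2 or 3 on pha-4 RNAi, the departure was called for 154, 366 or 214 genes. Without the second of only 2 eat-2 libraries, the one whose pha-4 level lay within the empty vector range, the count was 43.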

How the data were processed

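Polyadenylated RNA of whole worms was sequenced as single reads from stranded libraries, per the labels' protocols. The authors deposited whole-number read counts and transcripts-per-million (TPM) for 17907 genes in 33 libraries; 0 value columns were left unmapped. STAR 2.4.2a, RSEM 1.2.23, featureCounts 1.4.6-p5 and WBcel235 are named, without roles, in the submitters' processing notes. Use of strand in counting is not given in the sources used here, so overlapping genes are uncertain. Coordinates and gene names are from Ensembl's WBcel235 annotation.

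Counts were tested with edgeR 4.0.16 (R 4.3.3) quasi-likelihood, TMM factors (0.782 to 1.56) and filterByExpr (17354 genes kept), in a single model of 12 group means, with Benjamini-Hochberg adjustment at 0.05. In simulated counts with 200 genes changed by 2 (log2), 69% were recovered with 143 calls, 5 of them false. The changed genes were drawn only from genes above a minimum expected count in N2, and no simulated library stood apart from its replicates. These rates therefore do not carry over to genes of few counts or to a group with an outlying library. Alternatives used DESeq2 1.42.0, limma 3.58.1 on log2(TPM + 1) and other filters, libraries and scalings. Total counts ran from 20.2 M to 31.5 M; groups with 3 or fewer counts in every library are at the floor, and their fold changes are lower bounds covering counting error only. The labels mark replicates as separate populations.

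Named genes were the targeted genes and Myc-family network; the 10 highest and 10 lowest called genes with a symbol, no overlap and at least 5 CPM; up to 3 called members of each list; the 3 and 3 interaction genes of smallest p; and the 5 smallest p. Members and lists were chosen with earlier results of these data known.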

Additional observations from a re-analysis of the deposited data

Results flagged for a closer look

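The strain difference on pha-4 RNAi differed, by edgeR's test of the difference itself, from that on empty vector for 275 genes and from that on daf-16 RNAi for 186 genes, and the double mutant departed from the sum of its single mutants on pha-4 RNAi for 349 genes. Values below are these differences on the log2 scale.

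Against empty vector, the difference was positive for pha-4 (2.91), mtl-1 (5.93), tbh-1 (2.41), which makes octopamine, and ddo-3 (1.96). It was negative for far-3 (-7.02), ora-1 (-5.06), nlp-34 (-4.55) and the acid phosphatase gene pho-8 (-3.79). For pho-8 the double mutant averaged 6.87 CPM and N2 8.71 CPM on pha-4 RNAi, and the double mutant averaged 10.3 CPM and N2 0.94 CPM on empty vector. For tbh-1, 18.2% of exonic bases overlap other genes.

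Against daf-16 RNAi, it was positive for puf-9 (2.33), the kinase gene nsy-1 (1.96) and ncr-1 (1.76), and negative for nhx-6 (-5.64), far-3 (-4.94) and lys-7 (-3.89). None of puf-9, nsy-1, ncr-1, nhx-6 and lys-7 passed the edgeR test of the strain difference on pha-4 RNAi itself, where their values were 0.63, -0.11, -0.44, -1.66 and -0.23.

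The departure from the sum of the single mutants was positive for nhr-15 (2.57), gly-13 (2.4) and tra-3 (2.09), and negative for chil-28 (-7.61), acs-2 (-7.39) and ttr-20 (-3.77).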

How the results depend on the processing

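All 342 genes kept their direction under every other test, scaling, filter, covariate and left-out library of the same contrast. For 341 of them the 3 and 3 libraries did not overlap in CPM, so leaving out 1 could hardly turn the direction. The kept direction therefore says little about how firm the calls are. Without 1 library, 139 to 269 of the 342 kept the call. With the strain difference averaged over the 3 feedings, 4408 genes were called and 4 of the 342 turned. The count was 83 against a fold threshold of 1 (log2), 918 with the sperm covariate, 525 with the 2 groups alone, 2750 with 18 libraries, 571 with limma on log2(TPM + 1) and 709 with DESeq2. Because the pha-4 transcript went against the labels, and after seeing the data, the labelled double mutant was also set against N2 on empty vector (1153 genes) and its libraries labelled empty vector against N2 on pha-4 RNAi (993 genes). Leaving out single libraries gave 139 to 434.

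The difference from empty vector was called for 836, 3000, 2886 and 643 genes with the sperm covariate, the contrast's groups alone, 18 libraries and DESeq2, and for 86 to 216 with single libraries left out. Against daf-16 RNAi these were 608, 1585, 2853 and 1077, and 23 to 1240. The departure from additivity was 1256 with the covariate, 220 with limma on log2(TPM + 0.1), 760 with DESeq2 and 43 to 419. The causes were not tested.

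Same-numbered replicates of the 2 groups did not deviate together (correlations -0.13, 0.18 and -0.14). A replicate block gave 277 calls in all libraries and 56 in the 2 groups alone, 71 for the difference from daf-16 RNAi and 182 for the departure.

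The pha-4 value of 1.04 became -0.75 averaged over feedings, -0.42 against N2 on empty vector and -0.41 for the libraries labelled empty vector, and 1.00, then called, with 18 libraries. For eat-2, averaging (-2.91), the libraries labelled empty vector (-3.41) and 18 libraries (-1.79) brought calls. Averaging also reversed mml-1 (-0.87), mxl-1 (0.064), fmo-3 (0.94), vha-5 (0.18), glh-2 (-0.34), sqt-3 (-0.32), nas-11 (0.021) and drd-50 (1.75). The mml-1 value, near 0, was also -0.044 with the block in 2 groups, -0.028 with these alone, -0.016 with 18 libraries and -0.088 to 0.22 with single libraries left out. For other single genes 160 values lost and 70 gained a call.

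At 25.1 M to 31.5 M counts per library, differences in genes of a few counts, such as eat-2, were poorly resolved.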

Other observations

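Families picked after their values were seen are given here as descriptions, without a test of the family. Over all genes tested, 1.11% were called higher and 0.864% lower, and 8303 of 17354 had a positive log2 fold change. Of 56 transthyretin-related genes tested, a family of small secreted proteins, 8 were called lower and 0 higher in the labelled double-mutant libraries, and 55 had a negative log2 fold change, with a median of -0.94 against -0.03 over all genes. On empty vector the family's median was -0.53 and on daf-16 RNAi -0.06. Of 103 fbxb genes, which encode F-box proteins, 4 were called higher and 0 lower, with a median of 0.88, against medians of -0.39 on empty vector and 1.41 on daf-16 RNAi. Of 43 bath genes, which encode proteins with BTB and MATH domains, 5 were higher and 3 lower.

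Called genes numbered 110 of 3627 tested on chromosome V, 72 of 3088 on II and 56 of 2450 on X. They numbered 48 of 2925 on IV, 32 of 2717 on I and 24 of 2535 on III. In 1 window of chromosome II, from 3 to 4 Mb, chosen after its values were seen, 23 of 220 genes tested (10.45%) were called, all of them higher in the labelled double-mutant libraries, while 1.97% of all genes tested were called. Of the 23, 13 were also called on empty vector and 18 on daf-16 RNAi. In either single mutant on pha-4 RNAi 0 were called, but only 2 of all genes tested were called in each, so this 0 says little about the window. The window holds bath-31, bath-28, bath-8, bath-23, fbxb-103 and fbxb-112 among them, and genes of such families have near copies between which reads can be shared. The next windows by count held 9 called genes each.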
